A study of Mus musculus with 14 samples.

Results

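In this series 2 groups of untreated mouse embryonic stem (ES) cells carry the same subline name, MC1-ZE3, the same strain, 129/Sv, and the same day of harvest, day 3, and their RNA was compared probe by probe. They were found by sample title, and together make up 4 of the 14 arrays, 2 in each group. The first group (control day 3) was the untreated control of an experiment with retinoic acid (RA) and the inhibitor LY294002. Its label describes 3 days in standard ES medium with LIF and a daily change of medium, names the parent line MC1 in the protocol and gives the sex as unknown. The second group (standard day 3) was plated on gelatin as a monolayer in ES medium, with LIF not mentioned, and is labelled male. For both groups the extraction protocol speaks of colonies that were picked and pooled, although one of them is described as a monolayer. Whether both arrays of a group stand for independent cultures is not stated, so the p-values rest on a spread between arrays that may be technical. MC1-ZE3 is a single subline, and each group of 2 arrays stands for one untreated condition of it.

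The 10 other arrays serve as points of comparison. RA 48 h was MC1-ZE3 kept for 48 h in 50 nM RA and LY294002 48 h the same subline kept for 48 h in LY294002, an inhibitor of phosphoinositide 3-kinase. Passage 10 was MC1-ZE3 after 7 days of RA followed by 10 passages in medium lacking it, harvested on day 3. The remaining groups were colonies picked in 50 nM RA on day 4 from the subline MC1-ZE16 and on day 7 from MC1 (strain 129SvEv-Tac). Every array carried its sample RNA in Cy3 (a green dye) beside a reference RNA in Cy5 (a red dye), which the labels describe on all arrays as one mixture of RNA from cultured cell lines and LIF-grown ES cells.

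ES cells are derived from the inner cell mass of the blastocyst and can form all tissues of the embryo. The cytokine LIF, acting through STAT3, helps to hold them undifferentiated in serum-containing medium. Cultures of one line are nonetheless mixtures, in which cells move between more and less primed states, and density, passage, serum and time since feeding are known to shift that mixture. In bulk RNA of this kind, a change in the share of cells of one kind and a change in RNA per cell cannot be told apart.

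The array reads each RNA with a probe of 60 bases. The scanner files give a probe an identifier and a sequence and no gene name, so the probes on which the comparison turns most are shown by sequence. Ranked by the log2 ratio of sample to reference, the first pair had the largest rises and the second pair the largest falls in control day 3. The ranking covers probes above background in the sample channel on all 4 untreated arrays. At Z00066510-1 only the ratio fell. Its Cy3 signal was higher in control day 3, and its Cy5 signal was higher by more. Capitals would mark the polyadenylation hexamer AATAAA, searched on the printed strand, and none of the 4 holds it.
Z00074771-1: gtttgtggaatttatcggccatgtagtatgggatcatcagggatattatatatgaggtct
Z00057247-1: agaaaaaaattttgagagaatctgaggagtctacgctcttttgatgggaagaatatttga
Z00066510-1: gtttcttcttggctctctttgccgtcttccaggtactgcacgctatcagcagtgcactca
Z00049363-1: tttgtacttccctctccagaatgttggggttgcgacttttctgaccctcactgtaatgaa
None of the 4 was found in a RefSeq start region of GRCm38.p6, and their positions in the genome were not analysed here.

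The arrays of the 2 untreated groups lay on different slides and were scanned on different days. Both control day 3 arrays were on slide 5, together with RA 48 h, and were scanned on day 2 of 4, as was LY294002 48 h on slide 6. The standard day 3 arrays were on slides 2 and 3, each beside 1 array of passage 10, and were scanned on days 3 and 4. No slide and no scan day held both untreated groups, so group, slide and scan day cannot be told apart. The control arrays were also brighter. In Cy3, 73.1% and 74.8% of the 42006 probes were well above background on the control arrays, against 58.2% and 57.9% on the standard arrays. In Cy5 the shares were 74.6% and 78.0% against 68.1% and 70.1%. The groups did not overlap in either channel, but an exact permutation test of 2 against 2 arrays cannot go below a two-sided p of 0.333, the value found for both channels.

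In the log2 ratio of sample to reference, the 2 untreated groups differed far more from each other than the arrays of either group did among themselves. The median absolute difference over the 31053 tested probes was 0.05 between the 2 control arrays and 0.09 between the 2 standard arrays. Between 1 control array and 1 standard array it was 0.26 in each of the 4 pairings. At least 2-fold differences were seen at 46 probes between the control arrays and at 24 between the standard arrays, against 1598 to 1783 across the groups. Group means correlated at r = 0.860 across probes, while the 2 arrays of a group correlated at r = 0.992 (control) and r = 0.985 (standard). These are correlations over the probes of arrays that share one design, and probes are not independent replicates.

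**Figure D1:**
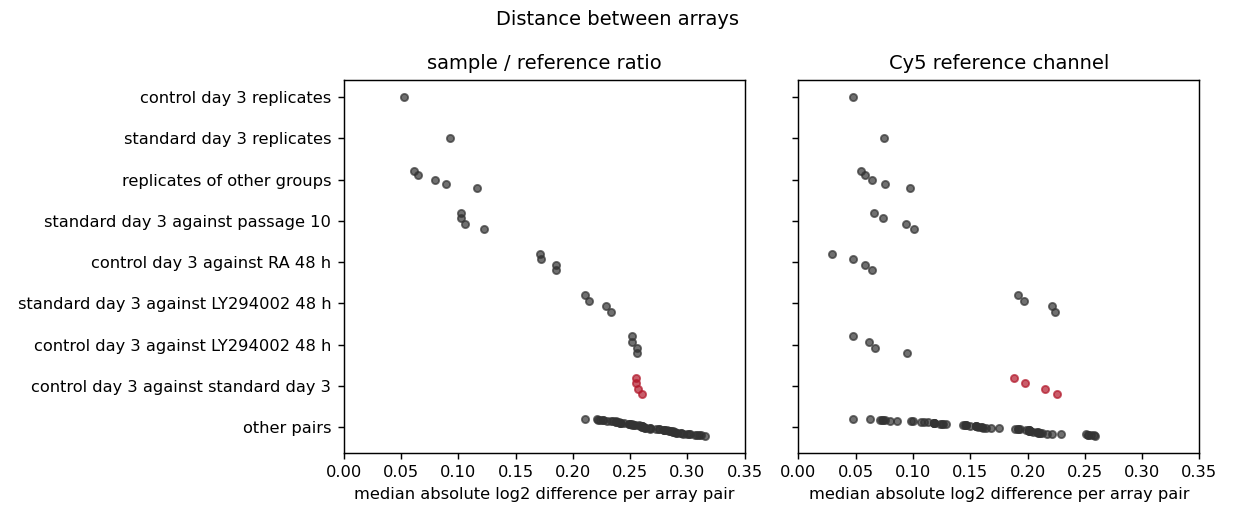
Median absolute log2 difference between arrays (x axis), 1 point per pair of arrays, for the ratio of sample to reference over 31053 tested probes (left) and for the Cy5 reference signal alone over 25670 probes above background in Cy5 on all arrays (right). The 4 pairs of a control with a standard array (red) lie at 0.26 in the ratio, to the right of all replicate pairs, and at 0.19 to 0.23 in the reference.

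Set among all 21 pairs of group means, the untreated pair ranked 14 from the nearest by the median absolute difference, 0.25, and 5 by the number of probes at least 2-fold apart, 1611. Standard day 3 and passage 10, which shared slides, were the nearest pair, at 0.08 and 32 probes. Control day 3 and RA 48 h, which shared a slide, came next at 0.17 and 1126 probes. Standard day 3 lay at 0.21 from LY294002 48 h, with 1452 probes, and control day 3 at 0.24, with 2227 probes. By the median, then, the 2 untreated groups were no nearer to each other than control day 3 was to cells in RA or LY294002, and the differences between these distances were not tested.

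In limma's moderated test, fitted over all 14 arrays, 16742 of 31053 probes (53.9%) passed a Benjamini-Hochberg adjusted p of 0.05 between the untreated groups. Of these, 9131 were higher and 7611 lower in control day 3. Most of the differences were small: 76.1% of tested probes differed by less than 0.5 on the log2 scale. At least 2-fold and past the same adjusted p were 1609 probes (5.18%), 1163 higher (3.75%) and 446 lower (1.44%) in control day 3. All 1163 higher probes had both control arrays above both standard arrays and 445 of the 446 lower probes had both below, which the choice of probes nearly fixes. Over all tested probes, 78.2% had groups that did not overlap. Among the higher probes 107 differed at least 4-fold and 16 at least 8-fold, and among the lower ones 13 and 1. The balance between directions depended on the scaling. Higher probes made up 54.5% of all called and 72.3% of those called at least 2-fold. The shares were 74.0% and 86.7% with each array's ratios centred on the median in place of loess, and 47.9% and 60.5% in Cy3 alone.

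**Figure D2:**
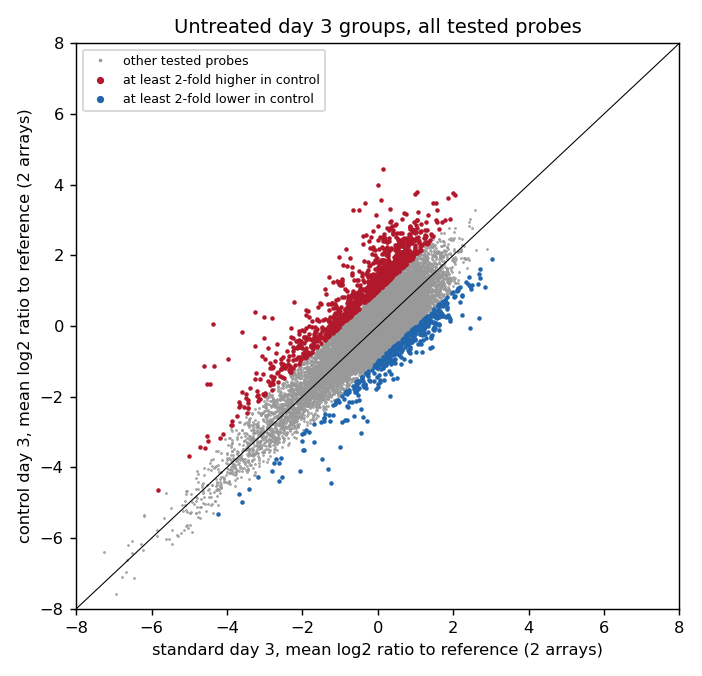
Mean log2 ratio to the reference in control day 3 (y axis) against standard day 3 (x axis), 1 point per tested probe and 2 arrays per group, with the line of equal values. Red marks the 1163 probes called at least 2-fold higher in control day 3, blue the 446 called at least 2-fold lower, and the red points reach farther from the line than the blue ones, to a difference of 4.44.

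Relative to the reference, the higher probes went in the median from about its level to above it. Their median log2 ratio was 1.16 in control day 3 and -0.14 in standard day 3, and 406 of the 1163 were above the reference in control and below it in standard. Of the other higher probes, 517 were above the reference in both groups and 240 below it in both. The lower probes had medians of -0.53 in control and 0.69 in standard, and 219 of 446 crossed the reference level the other way. Another 119 lower probes were above the reference in both groups and 107 below it in both. Of the 31053 tested probes, 3953 were above the reference in control only and 3348 in standard only. At 98 of the higher probes neither standard array was well above background in Cy3, and 60 of these were at least 2-fold higher by a lower bound. That bound sets the control mean against the higher of the probe's own signal and the dimmest signal well above background on each standard array, per channel after loess and Aquantile scaling, and with no dye swap it is open to dye bias. Its largest value was at least 13.2-fold higher. No lower probe had both standard arrays well above background and both control arrays not. Among all 31053 tested probes, neither standard array was well above background in Cy3 at 6057, and neither control array at 431. The called probes were spread over the range of brightness: with the tested probes split into 4 equal bins, from the dimmest to the brightest, 105, 372, 402 and 284 were higher and 7, 118, 176 and 145 lower.

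Among the probes above background on all 4 untreated arrays, Z00074771-1 had the largest rise. Its log2 ratio was 0.03 and 0.11 on the control arrays and -4.47 and -4.28 on the standard arrays. The groups lay far apart, with a difference of 4.44 ± 0.08 (SE), or 21.7-fold (limma, adjusted p = 1.92e-12). Background-subtracted Cy3 signals were 10190 and 9780 in control and 316 and 247 in standard, while Cy5 stayed between 11480 and 16640 on these 4 arrays. Its ratio was 0.17 and 0.21 in RA 48 h and -0.53 and -0.45 in day 7 colonies. It was -4.86 and -4.81 in LY294002 48 h, -4.76 and -4.69 at passage 10 and -2.82 and -2.72 in day 4 colonies.

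Z00057247-1 had the next largest rise, from log2 ratios of 0.20 and 0.10 on the standard arrays to 4.48 and 4.41 on the control arrays. The difference was 4.29 ± 0.07 (SE), or 19.6-fold (limma, adjusted p = 1.67e-12), and the groups did not overlap. Cy3 differed by 3.72 and Cy5 by -0.58. The size depended on the processing: it was 3.43 in Cy3 alone, 4.00 with median centring and 5.97 with the scanner software's processed signals. The probe was dim in the reference on all arrays, and its Cy3 signal was 1395 and 1197 in control against 36.3 and 27.1 in standard. Cy3 was higher still in RA 48 h, at 3169 and 3220, and was 1371 and 1295 in day 7 colonies. In LY294002 48 h it was 15.7 and 21.5. Both probes with the largest rises were thus high in control day 3, RA 48 h and day 7 colonies, and low in standard day 3, passage 10 and LY294002 48 h.

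Among the falls in the same set, Z00049363-1 differed in the sample channel. Its log2 ratio was -0.12 and -0.02 in control day 3 and 2.58 and 2.31 in standard day 3, a difference of -2.52 ± 0.14 (SE) (limma, adjusted p = 3.52e-08), or 5.73-fold. Cy3 signals were 233 and 237 in control and 1403 and 925 in standard, while Cy5 was 349 to 465 on these arrays. Passage 10, at 2.44 and 2.39, had the level of standard day 3. RA 48 h had that of control day 3, at -0.11 and -0.02, and the other 3 groups lay below 0.

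Among the probes above background on all 4 untreated arrays, Z00066510-1 had the largest fall, and here the reference channel differed. Its log2 ratio was -4.08 and -4.01 in control and -1.31 and -1.37 in standard, a difference of -2.71 ± 0.08 (SE) (limma, adjusted p = 1.58e-10). The Cy5 signal of the reference was 7872 and 7459 on the control arrays and 286 and 294 on the standard arrays. Cy3 was 249 and 193 in control and 38.6 and 29.1 in standard, so that the sample signal was higher in control although the ratio was lower. In Cy3 alone the difference was 1.11 (limma, adjusted p = 9.12e-08), with the sign turned. All 6 arrays of scan day 2 had Cy5 signals of 7129 to 10220 at this probe, the day 7 arrays had 1090 and 1173, and the 6 arrays of scan days 3 and 4 had 221 to 294. The reference differed by more than the sample channel, so neither the ratio of this probe nor its Cy3 alone gives a direction for the sample RNA.

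**Figure D3:**
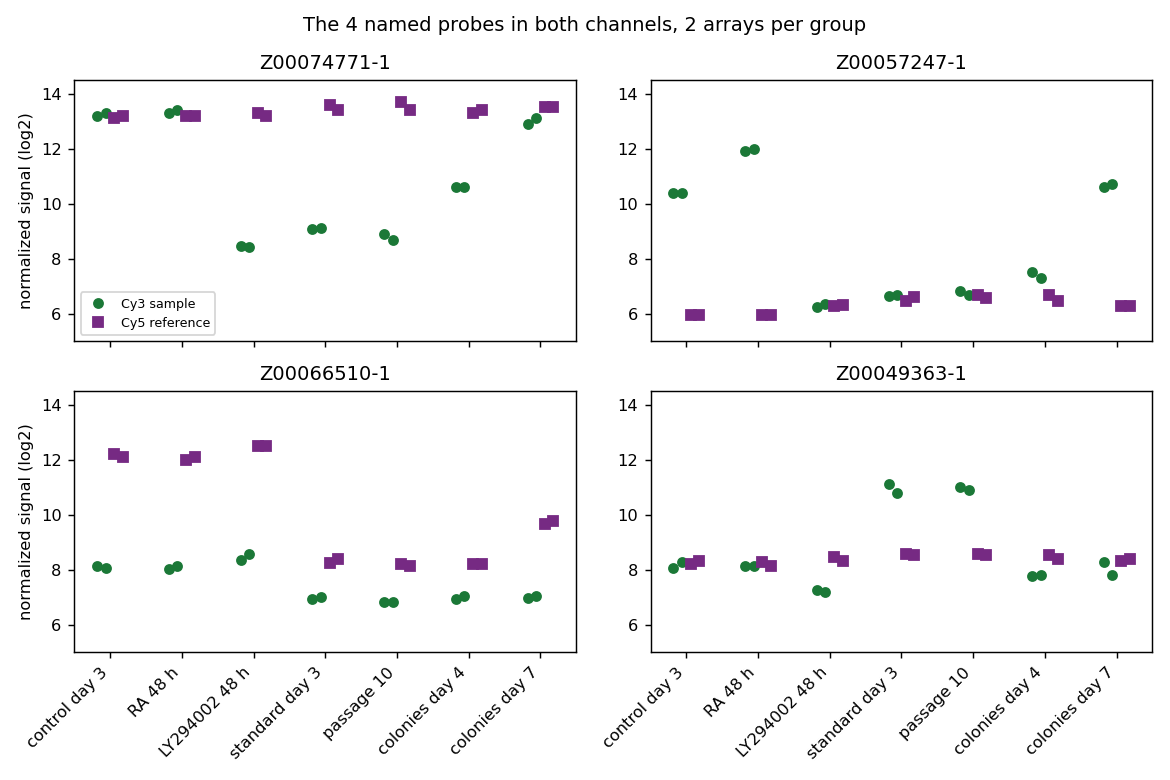
Normalized log2 signal (y axis) of the 4 probes in each group (x axis), 2 arrays per group, for the Cy3 sample (green circles) and the Cy5 reference (purple squares). At Z00074771-1, Z00057247-1 and Z00049363-1 the untreated groups differ mainly in Cy3. Control minus standard in Cy5 is -0.29, -0.58 and -0.30 there. At Z00066510-1 Cy5 is near 12 on the control, RA and LY294002 arrays and near 8 on the standard arrays.

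The reference was then compared between the untreated groups in its own right, since its label is the same on every array. It differed. Of 27256 probes above background in Cy5 on all 4 untreated arrays, 786 (2.88%) were called at least 2-fold different in Cy5 (limma on quantile-normalized log2 Cy5, adjusted p under 0.05), 723 higher and 63 lower with the control samples. The largest difference was 5.09 on the log2 scale, and 133 of the 723 were at least 4-fold. Pairs of arrays were compared over the 25670 probes above background in Cy5 on all arrays. The 6 arrays of scan day 2, which came from 3 groups and 2 slides, differed among themselves by medians of 0.03 to 0.10. Between them, 4 to 43 probes were at least 2-fold apart. Pairs with no array of scan day 2 differed by 0.0547 to 0.155, with 5 to 511 such probes. Control and standard arrays differed by 0.19 to 0.23, with 678 to 887 such probes, and the 2 standard arrays, although scanned on different days, by 0.07 with 19.

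At most of these probes the sample channel differed the same way. Of the 723 probes with a higher reference, 688 were also called higher in Cy3 and 1 lower, and of the 63 with a lower reference, 60 were called lower in Cy3 and 0 higher. Over all 31053 tested probes, 8368 were called higher and 9119 lower in Cy3 alone. The median difference of the 723 was 1.42 in Cy5 and 1.29 in Cy3, and in the ratio it was -0.02. Across all 27256 probes the Cy3 and Cy5 differences correlated at r = 0.604, a description of channels that share the same arrays. In the median over these 723 probes, Cy5 stood at 10.8 to 10.9 on the 6 arrays of scan day 2, at 9.88 and 9.90 on the day 7 arrays, and at 9.11 and 9.30 on the standard arrays. Of the 723, 49 were among the probes whose ratio was called at least 2-fold, 12 of them higher and 37 lower. Among all tested probes, 3.75% were called at least 2-fold higher by ratio and 1.44% lower. Whether the difference lay in the RNA mixture, the labelling, the hybridization or the scan was not tested.

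The ratio calls were therefore split by channel, as each difference in the ratio is the Cy3 difference minus the Cy5 difference. All 1163 higher probes were also higher in Cy3, 814 of them at least 2-fold, and at 30 the Cy5 difference was larger than the Cy3 difference. Their median difference was 1.23 in Cy3 and -0.12 in Cy5, which compares with medians over all tested probes of -0.0015 and -0.07. Of the 446 lower probes 424 were also lower in Cy3, 319 at least 2-fold. At 57 the Cy5 difference was the larger, and at 37 the reference was at least 2-fold higher with the control samples. Leaving out every probe with a 2-fold Cy5 difference kept 1557 calls of at least 2-fold, 1149 higher and 408 lower. In Cy3 alone, with quantile scaling between arrays, 2517 probes were called at least 2-fold, 1522 higher and 995 lower. That count does not take out differences which Cy3 shares with the reference. The 723 probes with a higher reference had a median Cy3 difference of 1.29. Of the 1609 probes called by ratio, 1024 were at least 2-fold and 1550 were called in the same direction there, and 33 had the opposite sign.

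**Figure D4:**
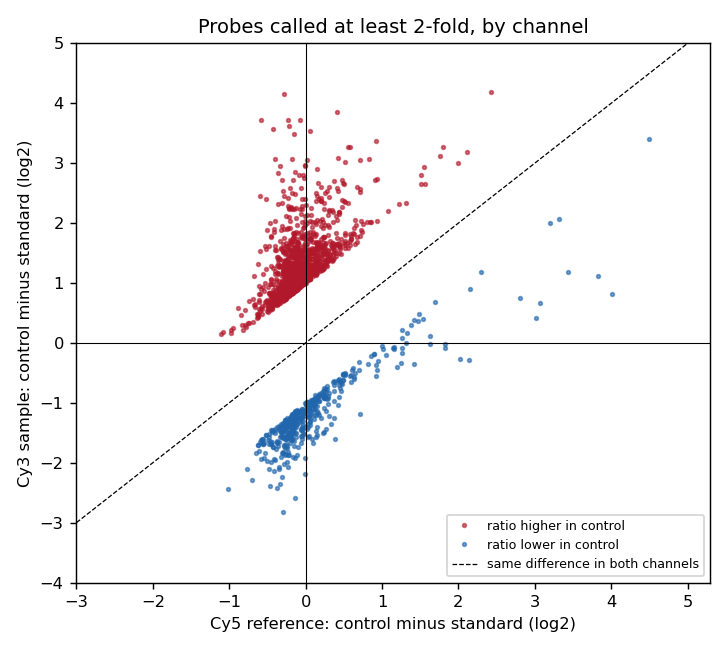
Control minus standard difference in the Cy3 sample channel (y axis, log2) against that in the Cy5 reference channel (x axis, log2), for the 1163 probes called at least 2-fold higher (red) and the 446 called at least 2-fold lower (blue) by ratio. Most points lie near 0 on the x axis, and a tail of blue points at the right has a higher reference with Cy3 near or above 0.

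The called probes were next followed in the other 5 groups, which took no part in the contrast but entered the filter and the estimate of spread. RA 48 h lay near control day 3 at both sets. Of the higher probes, 1030 of 1163 (88.6%) were nearer in RA 48 h to the control than to the standard mean, and of the lower probes 387 of 446 (87.0%). Passage 10 lay near standard day 3, with 1 of the 1163 and 2 of the 446 nearer to control. LY294002 48 h was divided: 281 of the higher probes (24.2%) and 236 of the lower probes (53%) were nearer to control. Day 7 colonies were nearer to control at 610 higher (52.5%) and 285 lower (64.0%) probes, and day 4 colonies at 390 (33.5%) and 171 (38.4%). The probes were chosen on the control and standard means, and no such share was taken over all tested probes. Over all tested probes, RA 48 h lay a median of 0.17 from control and 0.28 from standard, and passage 10 0.27 and 0.08. The distances were 0.24 and 0.21 for LY294002 48 h, 0.242 and 0.245 for day 7 colonies, and 0.29 and 0.21 for day 4 colonies. The median of the higher probes was -0.20 and -0.13 on the LY294002 48 h arrays and -0.14 and -0.12 on the standard day 3 arrays.

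**Figure D5:**
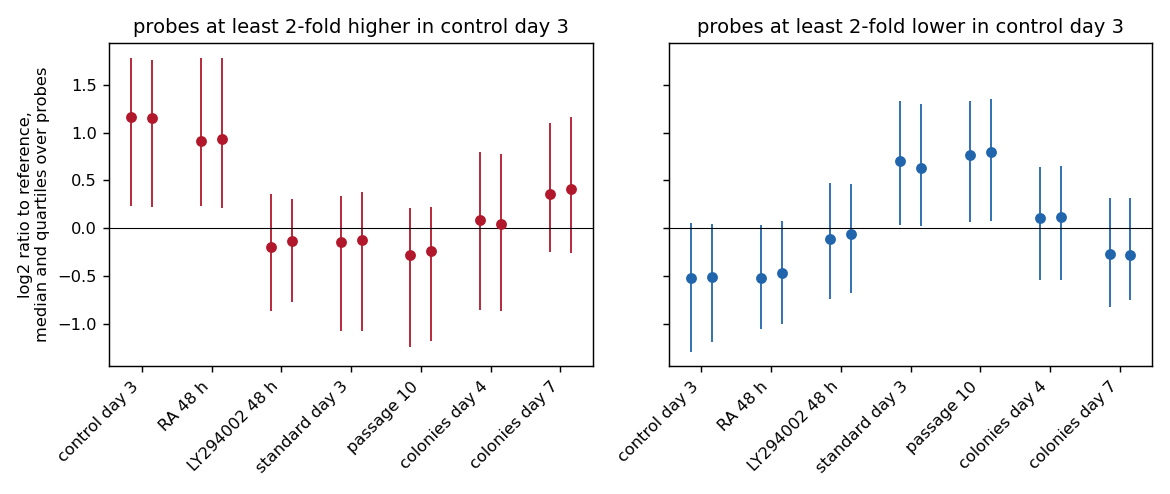
Log2 ratio to the reference (y axis) on each of the 14 arrays, by group (x axis), as the median (point) and quartiles (bar) over the 1163 probes higher (left) and the 446 lower (right) in control day 3. RA 48 h lies near control day 3 and passage 10 near standard day 3 in both panels, and LY294002 48 h lies near standard day 3 on the left and between the untreated groups on the right.

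A contrast that shares no array with the untreated pair gave the same picture. In RA 48 h minus passage 10, 877 of the 1163 higher probes were called at least 2-fold higher and 1 lower, where 8% of all tested probes were called higher. Of the 446 lower probes, 293 were called at least 2-fold lower and 2 higher, against 3.32% of all probes called lower. RA 48 h shares a slide and scan day with control day 3, and passage 10 shares its slides with standard day 3, and the part of slide in this was not tested. In LY294002 48 h minus passage 10, 179 of the 1163 were called at least 2-fold higher and 58 lower, against 1.70% of all probes called higher. There, 151 of the 446 were called at least 2-fold lower and 3 higher, against 3.25% of all probes called lower.

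Sequence features of the called probes are given as a description, with no test. Median GC content was 43.3% in the higher, 45% in the lower and 45% in all tested probes. The polyadenylation hexamer AATAAA, searched on the probe strand only, was in 95 of the 1163 higher probes (8.17%) and in 55 of the 446 lower ones (12.3%), against 7.38% of tested probes. It was in 112 (15.5%) of the 723 probes whose reference was higher with the control samples. The pentamer ATTTA, found in many unstable mRNAs and likewise searched on the probe strand, was in 5.85% of the higher, 7.85% of the lower and 6.94% of tested probes. A match is a description of these letters alone. Probes that read the same RNA agreed closely with each other: in 736 pairs of tested probes that overlap by 20 bases or more, the 2 differences lay a median of 0.07 apart. Of 399 such pairs with both probes called, 396 had the same direction. Of 101 pairs with 1 probe or both at least 2-fold, 81 had both, in the same direction, and 0 had opposite signs.

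Genes could be given to a small share of probes only. Probes were matched exactly to the RefSeq start regions of GRCm38.p6, windows from 250 bases before to 50 bases after a gene's start, which placed 422 of 42006. Of these, 184 ran in sense into the first bases of a transcript, at a window end by 20 or more bases, 106 lay in sense upstream of a start, and 132 read the opposite strand. With the probes turned to their reverse complement, 22 matched at a window end. Of the 103 tested probes over a transcript start, 35 were called higher and 10 lower in control day 3, where 29.4% and 24.5% of all tested probes were. At least 2-fold, 7 were called higher and 1 lower, where 3.75% and 1.44% of all tested probes were. Their median difference was 0.09, against 0.02 for all tested probes. Upstream of a start, 5 of 84 tested probes were called at least 2-fold higher, as were 6 of 105 on the opposite strand. In both of these classes 0 were called at least 2-fold lower. As ES cell, germ layer and feeder markers were nearly all without a placed probe, the label of the cells could not be checked against its markers.

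Of the 7 higher probes, 2 matched the ribosomal protein genes Rpl10a and Rpl26 and 1 matched Rps27rt, which is not among the listed ribosomal protein genes. Rpl10a (chr17:28328570-28328614, matched over 45 bases) encodes a protein of the large ribosomal subunit. Its log2 ratio was 1.00 and 1.30 in control and 0.34 and -0.28 in standard, a difference of 1.12 ± 0.18 (SE) (limma, adjusted p = 1.61e-04). Cy3 was higher by 0.82 and Cy5 lower by 0.29 there. Rpl26, also of the large subunit (chr11:68901592-68901615, matched over 24 bases only), differed by 1.49 ± 0.08 (SE), 0.91 of it in Cy3. Rps27rt, a retrotransposed copy of the small subunit gene Rps27 (chr9:114982690-114982744), differed by 1.17 ± 0.11 (SE), and its probe may also read the parent gene. Ribosomal protein genes have many near-identical pseudogenes, so these matches are uncertain. The 2 overlapping probes upstream of the annotated start of Rpl38 differed by 1.26 and 0.97 in the ratio but by only 0.15 and 0.41 in Cy3, with Cy5 lower by 1.11 and 0.56. Fau, whose product includes a ribosomal protein of the small subunit, was higher by 0.67 ± 0.08 (SE) at its start probe (limma, adjusted p = 1.61e-05), while a probe overlapping its start from upstream differed by 0.05 ± 0.08 (SE) (adjusted p = 0.578). In Cy3 alone these 2 probes were called in opposite directions. The start probe was at 0.54 (limma, adjusted p = 5.37e-05) and the upstream probe at -0.69 (limma, adjusted p = 2.25e-05).

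The other rises of at least 2-fold over a transcript start came from a ferritin-like gene, 2 histone genes and Ntng1. Fthl17e, an X-linked gene of the ferritin heavy chain-like family (chrX:9033494-9033535), had the largest difference of a placed probe. Its log2 ratio was 2.04 and 1.99 in control and -0.09 and -0.08 in standard, with neither standard array well above background, so that it was at least 3.07-fold higher in control (limma, adjusted p = 1.34e-09). RA 48 h had 2.51 and passage 10 had -0.14 in the mean. The family has near-identical copies that the probe may also read. H2bc11 (chr13:22043200-22043247) and H2bc7 (chr13:23574158-23574177, matched over 20 bases only) encode replication-dependent histone H2B, and differed by 1.29 ± 0.09 (SE) and 1.03 ± 0.08 (SE). H2bc7 was higher by 2.34 in Cy3 and by 1.31 in Cy5, so that both channels moved together, whereas H2bc11 was higher by 0.68 in Cy3 and lower by 0.61 in Cy5. Ntng1 (chr3:110143430-110143489), which encodes a netrin-related membrane protein of axons, differed by 1.19 ± 0.19 (SE). In Cy3 alone its difference of 0.49 did not pass the threshold (limma, adjusted p = 0.118).

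The 1 fall of at least 2-fold over a transcript start was at Gm15511, a predicted gene (chr9:69364198-69364226), with log2 ratios of -2.42 and -2.29 in control and -0.45 and -0.43 in standard. Neither standard array was well above background in Cy3, so the sample channel gives no size for a difference, and in Cy5 the reference was higher by 1.83 with the control samples. A fall in the sample channel was seen at Ttll3, a tubulin ligase-like gene (chr6:113389270-113389309). Its ratio was -0.55 and -0.53 in control and 0.42 and 0.36 in standard, a difference of -0.93 ± 0.08 (SE) (limma, adjusted p = 1.13e-06), of which Cy3 made -0.94.

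Of the 24 gene lists drawn up for ES cells, 19 had no tested probe placed over a transcript start of 1 gene. The other 5 held 6 tested probes. Both ribosomal protein probes, Rpl10a and Rpl26, were called higher. Xlr3b, an X-linked gene of the germ cell and methylation-sensitive list, was at least 1.58-fold higher in control (limma, adjusted p = 3.71e-05), as neither standard array was well above background. Uty, the Y-linked histone demethylase gene, had log2 ratios of 0.40 and 0.35 in control and 0.20 and -0.16 in standard. It was called higher (limma, adjusted p = 0.00902), but neither standard array was well above background, its lower bound was only 1.03-fold, and the call was lost with median centring, in Cy3 alone and without control array 1 or standard array 2 (adjusted p = 0.0597, 0.596, 0.0553 and 0.115). Acta2, the smooth muscle actin gene used as a feeder marker, was called lower by the ratio, with a difference of -0.29 ± 0.09 (SE) (limma, adjusted p = 0.0118) and 1 of the 2 standard arrays well above background. The call was lost with median centring and without either control array (adjusted p = 0.158, 0.0517 and 0.0516). Stc2, of the stress response list, had ratios of -0.08 and 0.07 in control and -0.09 and 0.11 in standard (limma, adjusted p = 0.885), again with neither standard array well above background.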

How the data were processed

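Spot mean signals and local median backgrounds, deposited as unnormalized intensity values, came from Agilent Feature Extraction (version 9.5.1.1 in the file headers). As an alternative, the deposited processed intensity was used, from which that software has removed background and dye bias, per the file headers. The authors' value table holds log10 values of 25030 probes, whose centring is unknown and whose direction (sample over reference) was found by comparison with the scanner files (column medians 2.24 to 2.32). The step from scanner files to that table is not given in the sources used here.

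In limma 3.58.1 (under R 4.3.3, using statmod 1.5.0 and, for tables, version 1.17.8 of the data.table package), mean signals were corrected with normexp (offset 50) and ratios normalized within arrays by loess, with control spots at weight 0. Spots of 1 probe were averaged, and ratios are log2 of Cy3 over Cy5. Tested were the 31053 of 42006 probes (73.9%) well above background in Cy3 on both arrays of at least 1 of the 7 groups. Group means were fitted over all 14 arrays (residual degrees of freedom 7, prior 5.33) with two-sided eBayes tests and Benjamini-Hochberg adjustment over all tested probes at 0.05. Cy3 and Cy5 differences per probe are after loess and Aquantile scaling. Saturated Cy3 spots numbered 0. The number of arrays, 2 per group, limits the precision.

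The probe comparison, the lists and the tests were chosen with earlier results of these data known. The rule for named genes needs a probe annotation or proteins, which were not used here. Its fallback names the 2 largest rises and 2 largest falls by identifier among probes past the threshold, above background in Cy3 on all 4 arrays and without overlap between groups. The placing on RefSeq start regions, and naming the placed probes called at least 2-fold, were chosen after the data were seen, as were the examples below 2-fold. In data simulated for control against standard day 3 on 31053 probes, 98.5% of the 66 probes set to a log2 difference of 2 were found, as were 98.5% of the 67 set to 1 and 70.1% of the 67 set to 0.5. False calls numbered 13 of 30853. The simulation covers the fit alone. Same-numbered arrays of the 2 groups did not deviate together (r = -0.0586), so no pairing was used. Alternatives are given in the closing section.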

Additional observations from a re-analysis of the deposited data

How the results depend on the processing

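The counts of 16742 probes called and 1609 called at least 2-fold were recomputed under each alternative, as were the differences of the probes and placed genes named, where the alternative held the probe. Of these recomputed differences 320 kept direction and call, 9 lost the call and 8 turned sign. In Cy3 alone, Z00066510-1 was at 1.11, the Gm15511 probe at 0.10, the upstream Fau probe at -0.69 and Stc2 at 0.00. Neither of the last 2 was called by ratio, and they also turned elsewhere: Stc2 was at 0.64 with processed signals and at -0.12 to 0.08 without 1 array, and Fau at -0.01 to 0.11 without 1 array. Centring on the median in place of loess gave 9370 called. Agilent's processed signals gave 4601 at least 2-fold, Cy3 alone 2517, and the authors' value table, with 19083 probes tested, 10796 called and 2803 at least 2-fold. An offset of 16 gave 2252 at least 2-fold, no filter on dim probes 1635, and the 23566 probes above background on all 4 arrays 1454. The slide or the scan day as a random block left 1609, as did the replicate block, with 16858 called, and the replicate block changed the call of no named probe. Leaving out 1 array at a time gave 13504 to 14647 called and 1593 to 1715 at least 2-fold, the lone array being assumed to vary like the other groups. The 4 arrays alone gave 1608. The median difference between untreated arrays, 0.257, was 0.263 with median centring and 0.447 with processed signals. The reference channel's 786 calls were 914 with median scaling. Of the alternatives added after the data were seen, leaving out LY294002 48 h array 2, whose ratios stood apart before loess, gave 1609 at least 2-fold, and leaving out probes with a 2-fold Cy5 difference 1557. Scan day and group cannot be told apart by any of them.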
